A study of Mus musculus with 2 samples.

Results

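The interleukin-12 and interleukin-35 family was examined in regulatory T (Treg) cells sorted from mouse spleen, with the receptor chains that read its cytokines. The family was taken as 10 genes of 23248 listed in either library, found by matching the deposited NCBI Gene IDs to symbols. They were selected on family membership with the level of Il12a in these libraries already known, so their leukemia to healthy ratios are given as a description and carry no test. The 5 ligand chains were Il12a (NCBI Gene 16159), Ebi3 (50498), Il12b (16160), Il23a (83430) and Il27 (246779). The 5 receptor chains were Il12rb1 (16161), Il12rb2 (16162), Il27ra (50931), Il6st (16195) and Il6ra (16194). Of the 10, 9 were listed in at least 1 library, and 7 reached 1 FPKM, a level normalised to transcript length and library size, in at least 1.

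RNA was sequenced from CD4+ FOXP3-GFP+ spleen cells of 2 groups with 1 library each, so no difference below has a replicate check. All animals were aged 6 to 8 weeks and carried the reporter allele Foxp3tm3(DTR/GFP)Ayr (strain background B6.129(Cg)), which marks cells that express Foxp3, the transcription factor of Treg cells, with green fluorescence. The leukemia group received 800000 leukemia cells without irradiation, and its cells were sorted at day 18. In this model mice survive 30 to 40 days, per the labels. The healthy group received PBS. The labels give the disease state as acute myeloid leukemia for the leukemia group and normal for the healthy group. The sources used here do not describe the injected leukemia cells further or say whether animals were pooled. The libraries held 8929601 (healthy) and 8897162 (leukemia) estimated reads.

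Cytokines of this family are pairs of an alpha chain with a helical fold and a partner chain that resembles a soluble receptor. Il12a (p35) joins Il12b (p40) to form interleukin-12, and joins Ebi3 to form interleukin-35, which Treg cells are known to secrete. Il23a (p19) with Il12b forms interleukin-23, and Il27 (p28) with Ebi3 forms interleukin-27. Their receptors share chains too: Il12rb1 with Il12rb2 binds interleukin-12, Il27ra with Il6st (gp130) binds interleukin-27, Il6ra with Il6st binds interleukin-6, and Il12rb2 with Il6st has been described for interleukin-35. The receptors signal through JAK kinases and STAT transcription factors.

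The pair of interleukin-35 chain genes lies on different chromosomes, and the RefSeq table of assembly GRCm38.p6 holds upstream windows for both. The 250 bases before each annotated start are shown for these 2 genes because they were the only ligand chains at 1 FPKM or more. Il12a has 2 annotated starts. Capitals mark CpG dinucleotides, the sites of DNA methylation, and all windows are on the + strand. For the deposited values, the sources used here name no build.

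Il12a, first start, chr3:68690394-68690643: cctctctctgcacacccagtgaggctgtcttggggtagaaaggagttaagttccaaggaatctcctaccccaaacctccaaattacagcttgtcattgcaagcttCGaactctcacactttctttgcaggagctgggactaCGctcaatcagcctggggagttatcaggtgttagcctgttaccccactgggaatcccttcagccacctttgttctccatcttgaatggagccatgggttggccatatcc
Il12a, second start, chr3:68691174-68691423: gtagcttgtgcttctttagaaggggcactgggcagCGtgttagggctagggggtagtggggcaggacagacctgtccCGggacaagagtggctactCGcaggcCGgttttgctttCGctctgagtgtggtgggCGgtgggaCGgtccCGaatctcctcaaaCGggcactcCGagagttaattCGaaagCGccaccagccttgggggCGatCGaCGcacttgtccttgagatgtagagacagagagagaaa
Ebi3, chr17:55952373-55952622: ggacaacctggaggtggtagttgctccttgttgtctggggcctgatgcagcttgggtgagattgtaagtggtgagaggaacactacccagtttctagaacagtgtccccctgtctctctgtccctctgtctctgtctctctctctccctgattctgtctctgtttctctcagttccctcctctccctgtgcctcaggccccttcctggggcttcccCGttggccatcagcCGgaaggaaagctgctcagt

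The windows differed in CpG content. The second Il12a window held 15 CpG dinucleotides, and 72.7% of all 32851 windows of this length held fewer. The first Il12a window and the Ebi3 window held 2 each, a number that 18.8% of windows fell below. No GENCODE M21 exon lay in these 3 windows. Searched on both strands, they held none of 5 short motifs. Those were GGANTTTCC (NF-kappaB, in 1.07% of all windows), GAAANNGAA (IRF, 7.13%), GAGGAAGT (PU.1, 2.44%), TTGCNNAA (C/EBP, 9.56%) and TATAAA, a core promoter element (12.4%). That says only that these letters were not in these windows.

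Before the members' values, the sort and the makeup of the libraries are given, since several ratios are read beside them. Foxp3 and Cd4, the genes of the sort gate, were present in both libraries and lower in leukemia, at 104 and 62.7 FPKM for Foxp3 and 267 and 184 FPKM for Cd4. The 18 genes of the T cell receptor complex and its signalling all lay below 0 on the log2 scale. Their log2 ratios ran from -0.79 to -0.20, with a median of -0.44. All 13717 genes at 1 FPKM or more had a median of 0.02, with 6440 below 0 and 7237 above. Reads of the 18 T cell genes, summed, had a leukemia to healthy ratio of 0.730. All 10 Treg genes of a separate list (Foxp3, Il2ra, Ctla4 and others) also lay below 0, with a median log2 ratio of -0.58. Genes of myeloid progenitors and leukemia went the other way. All 10 of that list were at least 2-fold higher, beside 6.55% of all genes. Their summed level was 4.89 FPKM in healthy against 1249 FPKM in leukemia. Red pulp macrophage genes summed to 978 and 545 FPKM, with 9 of 10 below 0 and Cd68 higher, at 39.6 and 69.0 FPKM. Of these 10, 4 were at least 2-fold lower, beside 1.95% of all genes. Monocyte genes summed to 169 and 764 FPKM, of which Ly6c2 alone was 23.7 and 437 FPKM. Of the 7 monocyte genes, 4 were at least 2-fold higher and 1 lay below 0. Fewer T cells and less RNA per T cell cannot be told apart in bulk RNA.

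**Figure D1:**
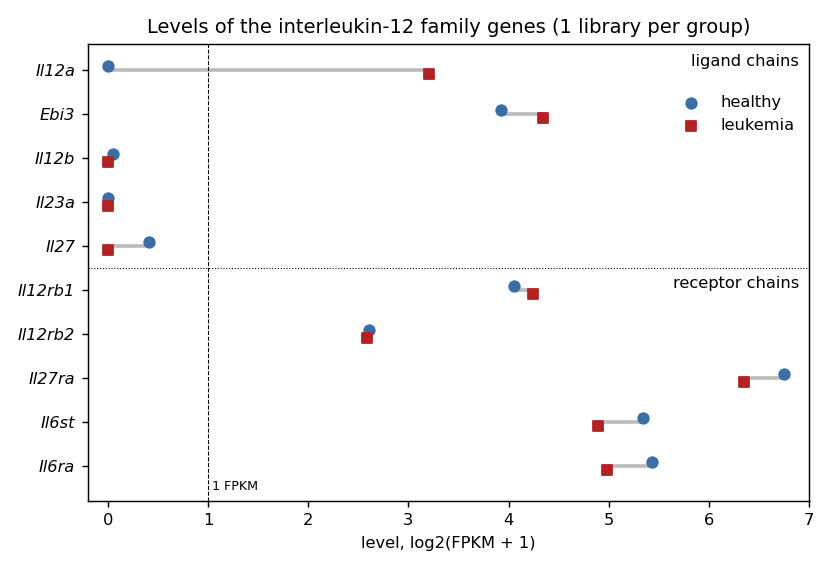
Level of each of the 10 genes, as log2(FPKM + 1), in the healthy library (circles) and the leukemia library (squares), with 1 library per group and a dashed line at 1 FPKM. Il12a runs from 0 to 8.22 FPKM, Il12b and Il27 lie under 1 FPKM in both libraries, Il23a, which has no row, is drawn at 0, and the receptor chains are all present.

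Among the ligand chains, Il12a differed most. It had 0 reads in the healthy library and 92 reads in the leukemia library, at 0 and 8.22 FPKM. The log2 ratio of FPKM with a pseudocount of 1 FPKM was 3.20. With the 0 set to 3 reads, Il12a was 30.8-fold higher in the leukemia library, a value that leaves out counting error. The exact 95% interval of the read ratio, which covers counting error only, starts at 24.5. The level of 8.22 FPKM lay at percentile 42.0 of the genes at 1 FPKM or more in that library, so the gene was below the middle of detected genes.

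The difference of Il12a was unusual in size but not alone. By log2 ratio it ranked 64 of 13717 genes. Of all genes, 1929 had reads in the leukemia library and 0 in the healthy library, mostly at the edge of detection, with a median of 1 read. Only 112 of these reached 1 FPKM. Il12a ranked 6 among the 1929 by reads, and 10 of them, Il12a included, stood at its FPKM or higher. The 5 others with a symbol whose FPKM lay nearest to it were the pseudogene Rbx1-ps (8.53 FPKM, uncertain since its reads may match its parent gene), 1700080G11Rik (7.16 FPKM), Snord95 (6.99 FPKM), Snord4a (6.57 FPKM) and Npy (6.30 FPKM). Likeness here rests on 2 libraries. Both small nucleolar RNA genes had 2 reads each, Npy, a neuropeptide gene, had 30, and Rbx1-ps had 39.6, all fewer than the 92 of Il12a, while 1700080G11Rik had 124.

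Ebi3, the partner of Il12a in interleukin-35, was present in both libraries. It had 147 reads (14.2 FPKM) in the healthy and 199 reads (19.4 FPKM) in the leukemia library. The read ratio was 1.36 with an interval of 1.09 to 1.69, and the log2 ratio of 0.42 was under 2-fold. In leukemia the level of Ebi3 was 2.35 times that of Il12a. In the healthy library Ebi3 was listed with no Il12a read. On the opposite strand, the long non-coding gene Gm16712 shares 270 exon bases with Ebi3 in the GENCODE M21 annotation, or 23.4% of the exon bases of Ebi3. Gm16712 had 76.8 reads in healthy against 119, and its ratio was 1.55 (1.15 to 2.09). The sources used here do not say whether counting used strand, so reads of the shared bases cannot be told apart.

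Of the other ligand chains, 2 were at or near 0 in both libraries and Il23a had no row. Il12b, the partner of Il12a in interleukin-12, had 1 read in the healthy library and 0 in leukemia. Il27 had 3 reads (0.33 FPKM) and 0. Il23a was listed in neither table, by gene ID or by transcript accession. A gene with no row in either table may have had no reads or may lie outside the annotation used for counting, so no level of Il23a is given. A count of 0 allows up to 3 reads, which is 0.336 in 1000000 reads of the healthy and 0.337 of the leukemia library. No ratio is given for Il12b and Il27, since their counts lay at or under that limit. Of the 4 cytokines, interleukin-35 was therefore the only one with both chain genes above 3 reads in the same library, and that was the leukemia library. Transcripts of both chains in a bulk library do not show that 1 cell holds both, nor that the protein is made.

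**Figure D2:**
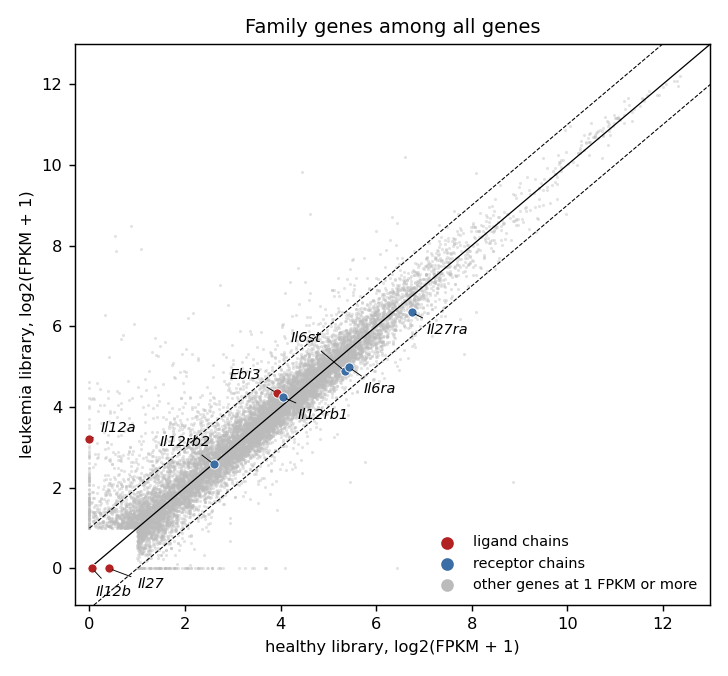
Level of every gene at 1 FPKM or more in the healthy (x axis) and leukemia library (y axis), as log2(FPKM + 1), with ligand chains in red, receptor chains in blue, the solid line at equal levels and dashed lines at 2-fold. Il12a, with 0 healthy reads, sits on the left edge, while Ebi3 and the 5 receptor chains lie between the dashed lines.

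The receptor chains were all detected and all under 2-fold. Of the 7 members at 1 FPKM or more, 1 (Il12a) was at least 2-fold higher in leukemia, beside 6.55% of all 13717 genes, and 0 were at least 2-fold lower, beside 1.95% of all genes. The choice of members used this contrast, so nothing is read from these shares. The median log2 ratio of the 7 was -0.02, against 0.02 for all genes, and that of the 5 receptor chains was -0.40.

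By level the receptor chains kept one order in the healthy library: Il27ra, Il6ra, Il6st, Il12rb1 and Il12rb2. The leukemia library had the same order. Il27ra, the chain specific to interleukin-27, stood at 106 and 80.4 FPKM, at percentiles 94.8 and 92.4 of detected genes. Il12rb2, the signalling chain of the interleukin-12 receptor, was the lowest at 5.08 and 4.99 FPKM, at percentiles 31.0 and 29.5. Its FPKM depends on its long deposited transcript length, 8696 and 8691 bases. By reads Il12rb2 was above Il12rb1 in the healthy library (401 against 354) and below it in the leukemia library (392 against 412). Il6ra and Il6st were neighbours in this order, at 42.3 and 39.6 FPKM in the healthy library. With 1 library a group, the spread over samples that would tell neighbours apart was not measured.

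Il27ra, Il6st and Il6ra were lower in leukemia by almost the same proportion. Il27ra had 2443 and 1840 reads, a ratio of 0.756 (0.711 to 0.803). Il6st, the shared signalling chain gp130, had 1952 and 1414 reads, a ratio of 0.727 (0.678 to 0.779). Il6ra, the chain that binds interleukin-6, had 1531 reads in healthy against 1150, and its ratio was 0.754 (0.698 to 0.814). The 3 intervals overlap each other, and each holds 0.730, the ratio of the summed reads of the T cell list. Set against those T cell reads in place of the library total, the ratios were 1.04 (0.975 to 1.10), 0.996 (0.930 to 1.07) and 1.03 (0.956 to 1.12), and each interval holds 1. That depends on the reference. The Treg list had a summed read ratio of 0.645, below all 3 intervals, and against its reads the ratios were 1.17 (1.10 to 1.24) for Il27ra, 1.13 (1.05 to 1.21) for Il6st and 1.17 (1.08 to 1.26) for Il6ra. This second reference was added after the values were seen. Of 10 red pulp macrophage genes, 9 also lay below 0, and their part in these ratios was not tested.

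Il12rb1 and Il12rb2 had higher ratios than the summed reads of the T cell list. Il12rb1, the chain common to the receptors of interleukin-12 and interleukin-23, had 354 and 412 reads, at 15.6 and 17.9 FPKM, a read ratio of 1.17 (1.01 to 1.35). With TMM library sizes that interval holds 1. Il12rb2 had 401 and 392 reads, a ratio of 0.981 (0.851 to 1.13). Both intervals lie above 0.730. Single genes of the T cell list spread around that value, from 0.556 for Trat1 to 0.888 (0.835 to 0.943) for Zap70. The interval of Il12rb2 overlaps that of Zap70, and the interval of Il12rb1 lies above it. Against the T cell reads the ratios were 1.60 (1.39 to 1.85) for Il12rb1 and 1.34 (1.17 to 1.55) for Il12rb2, and 1.86 (1.50 to 2.32) for Ebi3. Against the Treg reads they were 1.81 (1.57 to 2.09), 1.52 (1.32 to 1.75) and 2.11 (1.69 to 2.62). A typical gene also stood higher when set against the T cell genes. With log2 ratios centred on those genes, the 13717 genes at 1 FPKM or more had their median at 0.46. Il12rb2, at 0.42, was just under that value, while Il12rb1 (0.63) and Ebi3 (0.86) were above it. The T cell list held no member of the family. All 10 progenitor genes and 4 of 7 monocyte genes were at least 2-fold higher in the same leukemia library, while the monocyte gene Fcgr1 was lower, at 118 and 51 reads. Their part in these ratios was not tested.

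**Figure D3:**
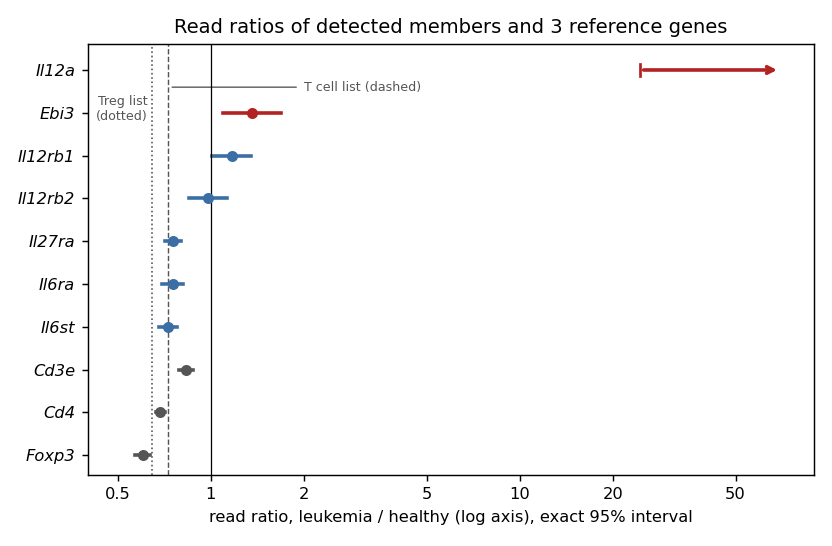
Leukemia to healthy read ratio (log axis) with its exact 95% interval for the 7 members at 1 FPKM or more and for Cd3e, Cd4 and Foxp3, with the solid line at 1, the dashed line at 0.730 (summed reads of the T cell list) and the dotted line at 0.645 (Treg list). Il27ra, Il6ra and Il6st lie on the dashed line, Il12rb2, Il12rb1 and Ebi3 lie to the right of both, and for Il12a the arrow starts at the lower bound of 24.5.

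The value of Il12rb2 has a limit of annotation. In GENCODE M21 it shares 1519 exon bases with Serbp1, which lies on the opposite strand, and these are 40.0% of the exon bases of Il12rb2. The deposited mean transcript length of Il12rb2, 8696 and 8691 bases, is longer than its 3794 exon bases in GENCODE M21. The overlap in the annotation used for counting is therefore not known. Serbp1, an RNA-binding protein gene, was abundant at 87.3 and 117 FPKM and had a ratio of 1.34 (1.29 to 1.39). Reads from the shared bases cannot be told apart without strand, and how many of the 401 and 392 reads lie there was not tested. Il27ra shares 2 exon bases with Palm3, and in the RefSeq gene table Il12a, Il12b, Il23a, Il12rb1, Il6st and Il6ra overlap no gene listed in the files.

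Ratios of 2 chains within a library do not depend on its total, though they depend on the transcript lengths used. Il6ra stood at 1.07 times Il6st in both libraries. Il27ra stood at 2.69 times Il6st in the healthy and 2.80 times in the leukemia library. These are the receptor pairs for interleukin-6 and interleukin-27, and their chains stood in nearly the same proportion in both libraries. Il12rb1 stood at 3.08 and 3.59 times Il12rb2. Il6st stood at 7.79 times Il12rb2 in the healthy and 5.76 times in the leukemia library, the receptor pair in which the proportion differed most among these 4. Il23r, the specific chain of the interleukin-23 receptor, had 2 and 1 reads, so its partner Il12rb1 was present with almost no Il23r transcript.

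The deposited mean transcript length, which depends on the mix of transcripts assigned to a gene, was nearly equal in both libraries for most members with several accessions. It was 4014 bases in the healthy and 4165 bases in the leukemia library for Il6ra, and 2524 and 2565 bases for Il12rb1. Il6ra is known to produce a soluble as well as a membrane-bound receptor. No count per transcript was given, so whether the mix of transcripts differed was not tested. No form of the receptor is read from these lengths.

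The genes next to the members on the chromosome are given as locus context, from gene order in the RefSeq table. Beside Il6st lies Il31ra, the receptor chain for interleukin-31 and a relative of gp130. Il31ra had 27.6 reads in the healthy and 200.1 reads in the leukemia library, at 0.74 and 5.66 FPKM, a ratio of 7.17 (4.81 to 11.1). Its interval lies far above that of its neighbour Il6st. Beside Il12a, Schip1 had 0 and 8 reads and the long non-coding gene Gm35584 had 1 and 1, so neither flanking gene came near the 92 reads of Il12a. Il23a lies between Stat2, at 34.6 and 17.7 FPKM, and Pan2, at 14.5 and 13.5 FPKM, both present where Il23a was not listed. Next to Il27, Nupr1 had 8 and 29 reads and the overlapping gene Apobr had 140 and 378, a ratio of 2.71 (2.23 to 3.31), while Il27 had 0 reads in leukemia.

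Relatives of the family were mostly under 2-fold, as were 12552 of all 13717 genes at 1 FPKM or more. Of 9 other ligands of the interleukin-6 and interleukin-12 families, 5 reached 1 FPKM. All 5 were under 2-fold, with a median log2 ratio of -0.09. Il11 (log2 ratio -0.56), Lif (-0.32) and Clcf1 (-0.09) had the largest differences. Il6, the ligand of Il6ra, had 0 reads and 1 read. Of 6 other receptor chains, 3 reached 1 FPKM. Il31ra, at a log2 ratio of 1.94, was the 1 called higher, and Il11ra1 (-0.22) and Lifr (0.08) were under 2-fold. Il6st partners with several of these chains.

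The signalling genes downstream were all under 2-fold, beside 12552 of all 13717 genes, so nothing is read from that count. The 19 JAK, STAT and feedback genes had a median log2 ratio of -0.29, with 15 below 0, against a median of 0.02 for all genes. Centred on the T cell genes their median was 0.15, against 0.46 for all genes. Stat2 (-0.93), which also serves interferon signalling, and Jak1 (-0.63) were among the largest differences. The read ratios of the kinases that these receptors use differed: Jak2 stood at 0.715 (0.664 to 0.770) and Tyk2 at 0.927 (0.850 to 1.01). Stat4, the main STAT of interleukin-12, stood at 47.1 and 38.0 FPKM, a ratio of 0.803 (0.737 to 0.876). Stat3, used by gp130, stood at 51.5 and 43.2 FPKM, a ratio of 0.834 (0.782 to 0.890). The proteases Adam10 and Adam17, which can shed the interleukin-6 receptor, had log2 ratios of -0.06 and 0.06.

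Genes known to respond to these cytokines did not move one way. Of 17, 16 reached 1 FPKM, with a median log2 ratio of 0.03, against 0.02 for all genes. Over all 13717 genes, 6.55% were called higher and 1.95% lower. The 1 called higher was Hlx, a homeobox gene of T helper 1 cells (0.87 and 5.26 FPKM, ratio 6.02, interval 3.58 to 10.7). All 10 progenitor genes were at least 2-fold higher in the leukemia library, and which cells held the Hlx reads was not tested. The 1 called lower was Ifng, the classic target of interleukin-12 (12.9 and 5.92 FPKM, ratio 0.458, interval 0.335 to 0.622). Il18rap was at a log2 ratio of 0.47. Centred on the T cell genes, Ifng was at -0.57 and no longer past 2-fold. Il10, which interleukin-27 can induce, had 62 and 55 reads, and Il17a was listed in neither table.

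Among 15 genes that drive the ligand genes in antigen-presenting cells, 14 reached 1 FPKM and had a median log2 ratio of -0.06. Spi1, encoding the myeloid factor PU.1, stood at 9.40 and 55.1 FPKM, a ratio of 5.59 (4.61 to 6.82). Irf8, a transcription factor of myeloid and dendritic cells known to activate Il12 genes, stood at 19.1 and 76.2 FPKM, a ratio of 3.99 (3.61 to 4.41). Tlr9 was at a log2 ratio of 0.71 on 12 and 39 reads. The NF-kappaB gene Rel, which is linked to Il12a in macrophages and dendritic cells, was at 6.55 and 4.15 FPKM. The higher genes Spi1 and Irf8 are also expressed by myeloid progenitors.

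**Figure D4:**
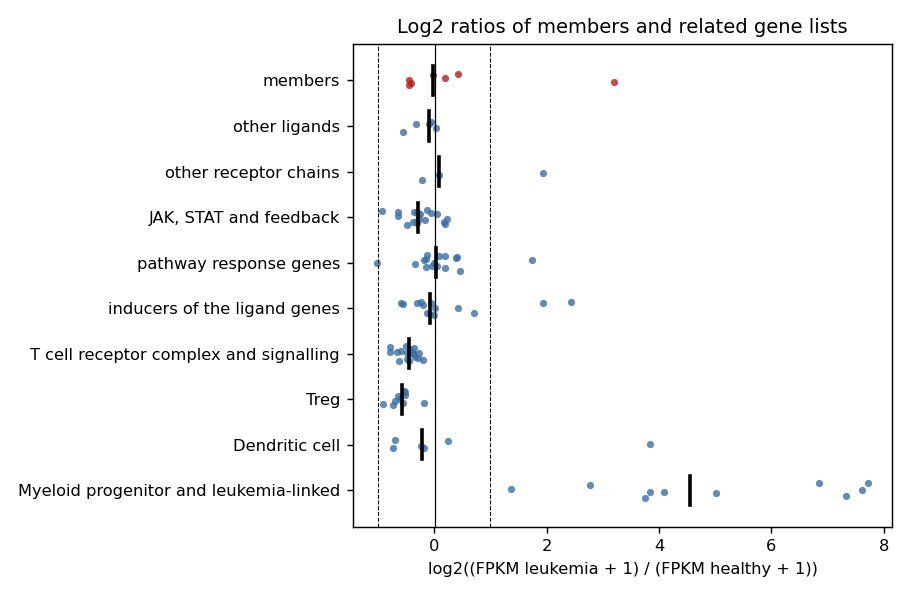
Log2 ratio of FPKM (leukemia over healthy, pseudocount 1 FPKM) for each gene at 1 FPKM or more in the members, 5 lists of related genes and 4 marker lists, with a black bar at each median, a thin line at the median of all genes (0.02) and dashed lines at 2-fold. The 3 lowest members, Il27ra, Il6st and Il6ra, lie beside the median of the T cell genes (-0.44), and Il12a (3.20) lies within the range of the progenitor list, whose median is 4.56.

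Markers of dendritic cells, B and plasma cells and NK cells were also looked at in the same libraries. The sums of the monocyte and macrophage markers are given above, with the makeup of the libraries. Of 10 dendritic cell markers, 6 reached 1 FPKM, and the summed level was 143 FPKM in healthy against 105 FPKM in leukemia. Most of that sum was Bst2, at 134 and 79.8 FPKM. Without Bst2 the sum turned, to 9.62 and 25.0 FPKM. Most of the latter was Flt3, which is also in the progenitor list, at 0.31 and 17.8 FPKM, and without both genes the sums were 9.31 and 7.18 FPKM. The defining markers were low and did not go one way: Zbtb46 had 29.8 and 17 reads, Xcr1 32.4 and 39.2, and Clec9a 6 and 8. Of 10 B cell and plasma cell markers, 7 reached 1 FPKM, all above 0 and none past 2-fold, and the summed level was 90.1 and 125 FPKM. Among all 13717 genes, 7237 lay above 0 and 12552 were under 2-fold. Of 6 NK cell markers all reached 1 FPKM, none was past 2-fold, and they summed to 19.3 and 15.2 FPKM. The part of any of these cells in the Il12a reads was not tested.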

How the data were processed

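RNA-seq tables of 2 libraries, 1 healthy and 1 leukemia, were used. The submitters' processing notes name RSEM and Bowtie2 2.2.5. No source used here gives the RSEM version, build, annotation or strand setting. Per the file headers, the authors deposited an expected count (an estimated count of reads per gene, rounded here for intervals), FPKM and another column, transcript length in bases. Genes absent from a table were set to 0. Of 23248 gene IDs, 21713 matched RefSeq symbols (GRCm38.p6) by ID and 22 by accession. Upstream windows were found for 6 of the 10 members.

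Ratios used log2(FPKM + 1), for genes reaching 1 FPKM in a library. A log2 ratio of 1 or more, or -1 or less, was called, with no test. Read ratios took exact (Clopper-Pearson) 95% intervals from Python 3.11.15 and scipy 1.17.1, covering counting error only. With 100 reads in each library the interval runs from 0.750 to 1.33, and with 1000 from 0.915 to 1.09. The functions were tested on simulated data. TMM factors came from edgeR 4.0.16.

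Named genes were all members, the 3 largest log2 ratios of each related list, the nearest listed neighbours, the 5 genes most like Il12a, and, chosen after their values were seen, other list members given beside them. Not every gene so chosen is reported here. The members and lists were chosen with earlier results of these data known. The alternatives are in the closing section.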

Additional observations from a re-analysis of the deposited data

How the results depend on the processing

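The counts of members past 2-fold, 1 higher (Il12a) and 0 lower, were the same under all 8 alternatives of the log2 ratio. Those were a pseudocount of 0.1 FPKM, TPM, division by the median ratio, TMM-scaled CPM, centring on the T cell genes, leaving other-cell genes out of the total, a filter of 5 FPKM and no filter. The log2 ratio of Il12a ran from 3.14 (without other-cell genes in the total) to 6.38 (pseudocount of 0.1 FPKM). Centring on the T cell genes moved the median of the members from -0.02 to 0.42 and that of all genes from 0.02 to 0.46. Under that centring Il27ra, Il6st and Il6ra lay at 0.04, -0.01 and -0.01, and Ebi3, Il12rb1 and Il12rb2 at 0.86, 0.63 and 0.42. It also gave 1973 higher and 101 lower genes in all, against 898 and 267. Other-cell genes left out of the total gave 827 and 308, TPM 961 and 414, and a pseudocount of 0.1 FPKM 1245 and 493. A filter of 5 FPKM gave 590 and 135 of 9656 genes. The median of the other receptor chains was 0.86 with that filter, which left fewer genes. Wilson intervals and TMM library sizes moved no read ratio outside its exact interval, but with TMM library sizes the interval of Il12rb1 shifted to hold 1, its lower end lying just under it. No paired analysis was possible because each group held 1 library. Depth limits Il12b and Il27, which had 3 reads or fewer, Il23a had no row, and the lack of replicates limits every difference.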
